A study of Mus musculus with 6 samples.

Results

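Blood and lymphatic endothelial genes, which mark or regulate the vessels, were followed in bulk RNA of colonic lamina propria cells. They are 10 genes chosen by name, as the rows whose Ensembl gene ID carries one of 10 symbols in GENCODE mouse release 21: Pecam1, Cdh5, Kdr, Plvap, Vwf, Nos3, Thbd, Lyve1, Prox1 and Flt4. All 10 were found among the 55401 gene IDs listed for each library. The tested libraries came from male Apc Min/+ mice of 5 to 6 weeks that were gavaged with atorvastatin at 20 mg/kg every other day (3 libraries), and they were set against libraries of Apc Min/+ males of the same age given the vehicle, 2% Tween 80 (3 libraries). Apc Min/+ mice carry a truncating mutation in 1 copy of Apc, a brake on Wnt signalling, and form intestinal adenomas. Both groups share that allele, so no library shows a wild-type vessel. The labels give neither the length of treatment nor whether each library is a separate animal, so the p-values below reflect variation among these 6 libraries that could be technical.

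Endothelial cells line every vessel. Blood endothelial cells hold together through VE-cadherin and PECAM-1, respond to VEGF-A through VEGFR2, and in gut capillaries carry the diaphragm protein PLVAP, which controls what leaves the vessel. Lymphatic endothelial cells are specified by the transcription factor PROX1, grow in response to VEGF-C through VEGFR3 and carry the hyaluronan receptor LYVE-1. In cultured endothelium statins are known to raise endothelial nitric oxide synthase and thrombomodulin, which keep vessels relaxed and blood from clotting. These are the products of Nos3 and Thbd.

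None of the 10 genes passed the test over all genes. Lyve1 was lower in every atorvastatin library than in any vehicle library. It averaged 78.4 ± 7.02 FPKM with atorvastatin and 97.5 ± 4.02 FPKM with vehicle (SD, n = 3 each). Nos3 had the largest positive difference of the 10, at 7.80 ± 1.02 FPKM with atorvastatin and 5.89 ± 1.37 FPKM with vehicle (SD, n = 3 each), but the groups overlapped and the difference was 0.19 log2 units, against 0.37, without vehicle library 3. Thbd groups did not overlap either but lay close, at 56.7 ± 3.96 FPKM with atorvastatin and 51.3 ± 0.922 FPKM with vehicle (SD, n = 3 each). In bulk RNA, fewer cells of a type and less RNA per cell cannot be told apart.

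FPKM is the number of fragments scaled by gene length and library, so levels of different genes can be compared on it. All 10 genes were above the filter on low values, which was 1 FPKM in at least 3 of the 6 libraries, and 13590 genes were tested. Differences are atorvastatin minus vehicle on the log2(FPKM + 1) scale, which understates changes of genes with low FPKM, and were tested with limma, with p-values adjusted by Benjamini-Hochberg and a threshold of 0.05. Of the 13590 genes 0 passed (0% called), while 974 had an unadjusted p under 0.05, and 4 passed when limma weighted the libraries by quality (Map2k7, Emp1, Ccl17 and Gm49320, none of them on an endothelial list and all named after their values were seen). Of the 10 genes 1 had an unadjusted p under 0.05, which was Lyve1, against 7.17% of all genes. Differences were positive for 8 of the 10 and negative for 2, against 47% and 53% of all genes, and their median was 0.14 against -0.02 for all genes tested. The 2 groups did not overlap in 1 gene that was higher with atorvastatin, Thbd, against 5.53% of all genes, and in 1 that was lower, Lyve1, against 8.85% of all genes. For all 10 genes, and for 89.8% of all genes, both ends of the 95% interval were under 1 log2 unit from 0, so these data leave room for differences of up to 0.79 log2 units, the widest interval end. A p that misses the threshold does not show that the levels were equal.

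**Figure D1:**
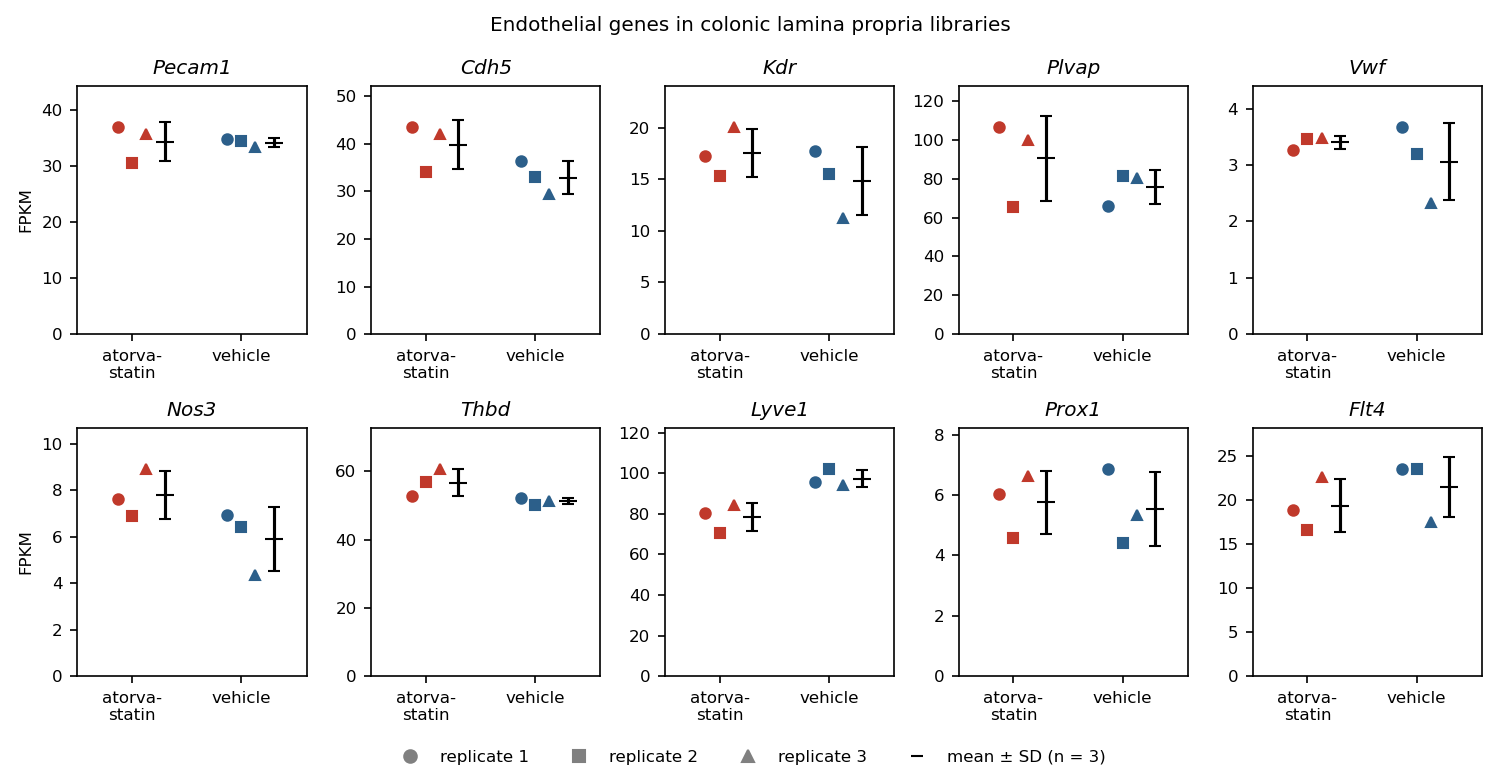
FPKM of the 10 endothelial genes in each of the 3 atorvastatin and 3 vehicle libraries of Apc Min/+ lamina propria cells, with each axis starting at 0. Symbols are single libraries and black bars the mean ± SD (n = 3). The Lyve1 groups are apart, with 70.7 to 84.3 FPKM with atorvastatin and 94.5 to 102 FPKM with vehicle, and the Thbd groups nearly touch at 52.7 and 52.1 FPKM.

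The number of fragments behind each library is unknown. The libraries summed to between 355787 and 456064 FPKM and had between 13303 and 13703 genes at 1 FPKM or more. Transcripts of immunoglobulin genes and of the mitochondrial genome took 34.7%, 51.4% and 32.9% of the summed FPKM in the atorvastatin libraries and 40.5%, 42.4% and 37.3% in the vehicle libraries, so atorvastatin library 2 had the least room for other transcripts. Vehicle library 3 stood apart in another way: its levels fell off with transcript length, by -0.06 log2 units per doubling of the longest annotated transcript relative to the mean of the 6 libraries. The other libraries had slopes between 0.00 and 0.04. Summed levels of 6 pan-leukocyte genes were 446 to 506 FPKM with atorvastatin and 580 to 635 FPKM with vehicle. Those of 12 dissociation response genes, among them immediate early genes and heat shock genes, were 6823 to 9444 FPKM with atorvastatin and 6089 to 6240 FPKM with vehicle, led by Hspa1b at 2289 ± 339 and 1680 ± 183 FPKM and Hspa1a at 2059 ± 308 and 1523 ± 120 FPKM (atorvastatin and vehicle, SD, n = 3 each). Neither of these sums overlapped between the groups. By gene, the groups did not overlap in 3 of the 6 pan-leukocyte genes, all lower, against 8.85% of all genes. Among the 12 dissociation response genes it was 4, all higher, against 5.53% of all genes. The part of either list in the endothelial values was not tested.

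The libraries held an endothelial signal of good size. All 25 genes of a pan-endothelial list were above the filter, and the 10 genes ran from the high level of Lyve1 to the low level of Vwf. Over all 6 libraries Lyve1 averaged 88.0 FPKM, at rank 556 of the 13590 tested genes, and Plvap 83.3 FPKM, at rank 585. Thbd followed at 54.0 FPKM, Cdh5 at 36.4, Pecam1 at 34.2, Flt4 at 20.4, Kdr at 16.2, Nos3 at 6.84, Prox1 at 5.65 and Vwf at 3.23 FPKM. Vwf was at rank 9122, below the median tested gene, which had 5.51 FPKM. Lyve1 and Plvap overlapped in range, as did Cdh5 and Pecam1, Flt4 and Kdr, and Nos3 and Prox1, so the order within those pairs is not firm across libraries. Flt4 was nonetheless above Kdr in each of the 6 libraries. The steps from Plvap to Thbd, from Thbd to Cdh5, from Pecam1 to Flt4, from Kdr to Nos3 and from Prox1 to Vwf held with no overlap.

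Junction and adhesion genes came first among the blood endothelial set. Pecam1 (ENSMUSG00000020717, mm10, chromosome 11, 106654217 to 106750628, minus strand) encodes PECAM-1, an adhesion molecule at endothelial contacts that leukocytes and platelets also carry. It had 36.9, 30.5 and 35.6 FPKM in the atorvastatin libraries and 34.8, 34.3 and 33.3 FPKM in the vehicle libraries. Its difference was 0.00 (SE 0.12, 95% interval -0.28 to 0.29, limma adjusted p = 0.996), and the vehicle libraries lay inside the range of the atorvastatin libraries. The vehicle values varied by a coefficient of variation of 2.24%, the atorvastatin values by 9.88%.

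Cdh5 (ENSMUSG00000031871, chromosome 8, 104101625 to 104144511, plus strand) encodes VE-cadherin, the cadherin of endothelial junctions. It had 43.5, 34.0 and 42.1 FPKM in the atorvastatin libraries and 36.4, 33.0 and 29.4 FPKM in the vehicle libraries. Atorvastatin libraries 1 and 3 were above every vehicle library, and atorvastatin library 2 fell among them. The difference was 0.27 (SE 0.15, 95% interval -0.08 to 0.61, limma adjusted p = 0.702). Cdh5 and Pecam1, both pan-endothelial, therefore did not give the same difference, although neither passed the test and the difference between them was not tested.

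Platelets and megakaryocytes carry Pecam1 and Vwf too. Of 10 platelet and megakaryocyte markers 6 were below 1 FPKM in every library and 1 of these, Treml1, was listed at 0 in all 6. The list summed to 21.7 to 26.5 FPKM with atorvastatin and 21.9 to 26.8 FPKM with vehicle. The largest part of that sum was Itgb3, an integrin chain that endothelial and other cells also carry, which had 16.1, 16.7 and 14.4 FPKM with atorvastatin and 15.5, 18.7 and 12.2 FPKM with vehicle, followed by the platelet chemokine Pf4 at 7.26, 8.06 and 5.00 FPKM with atorvastatin and 4.35, 4.10 and 11.2 FPKM with vehicle. The defining platelet receptor genes Gp6 and Gp9 were below 1 FPKM throughout. Ppbp, another platelet chemokine gene, had 0.25, 0.04 and 0.00 FPKM with atorvastatin and 0.58, 0.48 and 2.17 FPKM with vehicle. Gp1bb had 0.05, 0.02 and 0.00 FPKM with atorvastatin and 0.27, 0.17 and 0.09 FPKM with vehicle. Ppbp and Gp1bb, named after their values were seen, were lower with atorvastatin with no overlap, but were too low to be tested. Of all tested genes 8.85% were lower with no overlap. No other gene of the list had separate groups.

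Receptor and permeability genes of the capillaries had positive differences with overlapping groups. Kdr (ENSMUSG00000062960, chromosome 5, 75932827 to 75978458, minus strand) encodes VEGFR2, the main signalling receptor for VEGF-A. It had 17.2, 15.4 and 20.0 FPKM in the atorvastatin libraries and 17.7, 15.5 and 11.2 FPKM in the vehicle libraries. Only vehicle library 3 was below the atorvastatin range. The difference was 0.24 (SE 0.19, 95% interval -0.20 to 0.69, limma adjusted p = 0.756), and 0.07 without vehicle library 3.

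Plvap (ENSMUSG00000034845, chromosome 8, 71497765 to 71511752, minus strand) encodes the protein of capillary diaphragms. It had 106, 65.6 and 99.8 FPKM in the atorvastatin libraries and 65.9, 81.3 and 80.5 FPKM in the vehicle libraries. Atorvastatin library 2 was the lowest of all 6 and the other atorvastatin libraries were the highest. The difference was 0.23 (SE 0.21, 95% interval -0.28 to 0.74, limma adjusted p = 0.806), and 0.44 without atorvastatin library 2. Plvap was the most variable of the 10 genes in the atorvastatin group, with a coefficient of variation of 24.2%.

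Vwf (ENSMUSG00000001930, chromosome 6, 125546774 to 125686679, plus strand) encodes von Willebrand factor, which endothelial cells store and release to capture platelets. It had 3.27, 3.46 and 3.48 FPKM in the atorvastatin libraries and 3.67, 3.19 and 2.32 FPKM in the vehicle libraries. The vehicle group spanned the atorvastatin group, with a difference of 0.13 (SE 0.15, 95% interval -0.22 to 0.48, limma adjusted p = 0.831). Without vehicle library 3 it was -0.01.

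Vehicle library 3 had a large part in the values of several genes, most of them with long transcripts. Relative to the mean of the other 2 vehicle libraries it was lower by a log2 difference of -0.52 in Kdr (longest transcript 5924 nt), -0.52 in Nos3 (4132 nt), -0.41 in Vwf (8834 nt) and -0.40 in Flt4 (6255 nt). Cdh5 (3995 nt), close to Nos3 in length, was at -0.23. Vehicle library 3 was not lower in Plvap (0.14, 1987 nt) or Thbd (0.01, 3723 nt). Prox1, with 7913 nt, was an exception among the long ones at -0.04. With a trend on transcript length removed from each library, a setting chosen after the data were seen, the differences were 0.18 for Kdr, 0.36 for Nos3, 0.01 for Vwf, -0.21 for Flt4 and 0.26 for Cdh5.

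**Figure D2:**
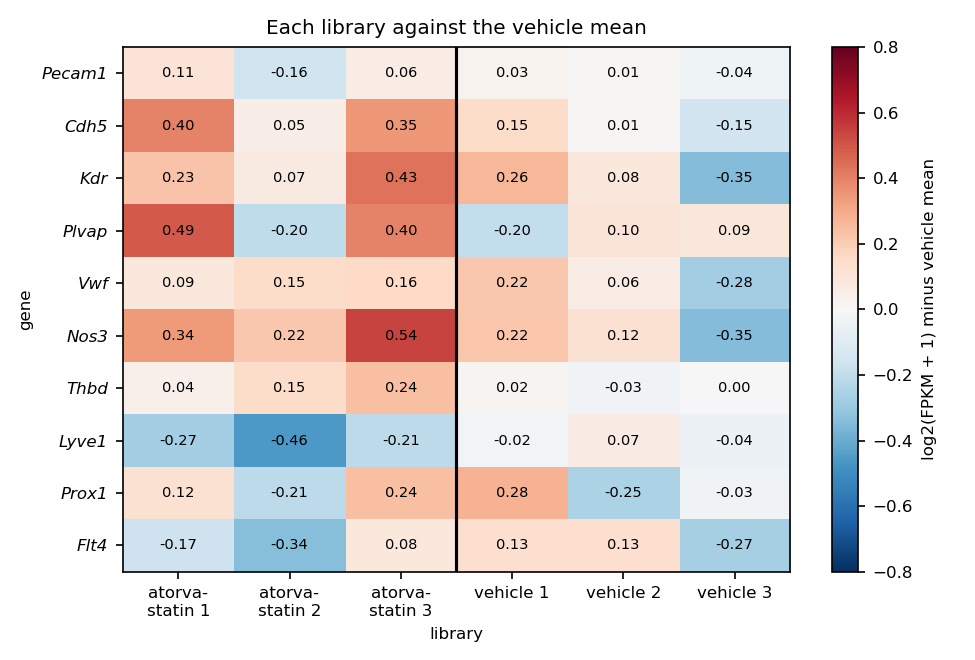
Level of each of the 10 genes in each library as log2(FPKM + 1) minus the mean of the 3 vehicle libraries, atorvastatin libraries to the left of the black line and vehicle libraries to the right. Red is above and blue below the vehicle mean, and the numbers are the plotted values. Lyve1 is below it in all 3 atorvastatin libraries, and Kdr, Vwf, Nos3 and Flt4 are lower in vehicle library 3 than in the other vehicle libraries.

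Statin-responsive genes of the vessel wall were compared next. Nos3 (ENSMUSG00000028978, chromosome 5, 24364810 to 24384474, plus strand) encodes endothelial nitric oxide synthase. It had 7.61, 6.89 and 8.90 FPKM in the atorvastatin libraries and 6.93, 6.40 and 4.34 FPKM in the vehicle libraries. Vehicle library 3 was the lowest and atorvastatin library 3 the highest, and atorvastatin library 2 was just below vehicle library 1. The difference was 0.37 (SE 0.18, 95% interval -0.06 to 0.79, limma adjusted p = 0.696). Leaving out single libraries gave from 0.19 (vehicle library 3) to 0.48 (vehicle library 1). The groups became separate under median-of-ratios scaling, at 7.25 to 8.51 FPKM with atorvastatin and 4.39 to 6.95 FPKM with vehicle. With equal sums per library they overlapped, at 6.1 to 10.1 FPKM with atorvastatin and 4.16 to 6.88 FPKM with vehicle. With equal sums without immunoglobulin and mitochondrial genes they were separate, at 7.45 to 9.0 FPKM with atorvastatin and 3.97 to 6.91 FPKM with vehicle. Nos3 shares exonic bases with 2 genes of the opposite strand, Atg9b and Gm15587, and the sources used here do not give the strand setting of the counting, so reads of the partners cannot be told apart. Both were low, with 0.23 to 0.42 FPKM for Atg9b and 0.02 to 0.24 FPKM for Gm15587 over the 6 libraries.

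Thbd (ENSMUSG00000074743, chromosome 2, 148404466 to 148408188, minus strand) encodes thrombomodulin, which turns thrombin into an activator of protein C and is also found on monocytes and dendritic cells. It had 52.7, 56.8 and 60.6 FPKM in the atorvastatin libraries and 52.1, 50.3 and 51.4 FPKM in the vehicle libraries. Each atorvastatin library was above each vehicle library, but by a narrow gap. The difference was 0.14 (SE 0.11, 95% interval -0.13 to 0.41, limma adjusted p = 0.775). With equal sums per library the groups overlapped, at 50.3 to 68.8 FPKM with atorvastatin and 49.2 to 51.7 FPKM with vehicle. Of 10 monocyte and conventional dendritic cell markers 9 were tested, 2 with positive and 7 with negative differences and a median of -0.17. They summed to 68.6, 97.1 and 55.7 FPKM with atorvastatin and 80.1, 82.4 and 88.0 FPKM with vehicle. The most abundant were Ly6c2, at 43.9, 70.2 and 30.2 FPKM with atorvastatin and 54.7, 55.2 and 59.1 FPKM with vehicle, and Itgax, at 5.05, 7.11 and 5.97 FPKM with atorvastatin and 5.04, 8.45 and 6.26 FPKM with vehicle. Their part in Thbd was not tested.

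Each gene was also set against Pecam1 and Cdh5 in its own library, which gives its level relative to these 2 genes. Pecam1 is not confined to endothelium, and the differences of the pair were unlike, at 0.00 and 0.27. The values below therefore depend on the choice of the pair. Nos3 relative to the mean of Pecam1 and Cdh5, on the log2 scale, was -2.11 ± 0.13 with atorvastatin and -2.34 ± 0.22 with vehicle (SD, n = 3 each), and the groups overlapped. The difference of 0.23 was 0.11 without vehicle library 3. Thbd relative to the same genes was 0.61 ± 0.21 with atorvastatin and 0.60 ± 0.09 with vehicle (SD, n = 3 each), a difference of 0.01. Lyve1 was 0.99, 1.11 and 1.10 in the atorvastatin libraries and 1.41, 1.57 and 1.57 in the vehicle libraries, a difference of -0.45 with no overlap. Of the 8 chosen genes other than the pair, 1 was lower with no overlap, Lyve1, against 15.6% of all tested genes. Of the same 8, 0 were higher with no overlap, against 2.1% of all tested genes. Mmrn1 and Cd34 were also lower with no overlap, with differences of -0.51 and -0.43. Both are list genes taken up below for an unadjusted p in the lower direction in these same libraries. Their relative values are therefore no separate evidence. Klf2 and Klf4 were set against the pair too, and their groups overlapped, with differences of -0.20 and 0.22. The median over all genes was -0.15 on this scale, so a value below 0 is common there.

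**Figure D3:**
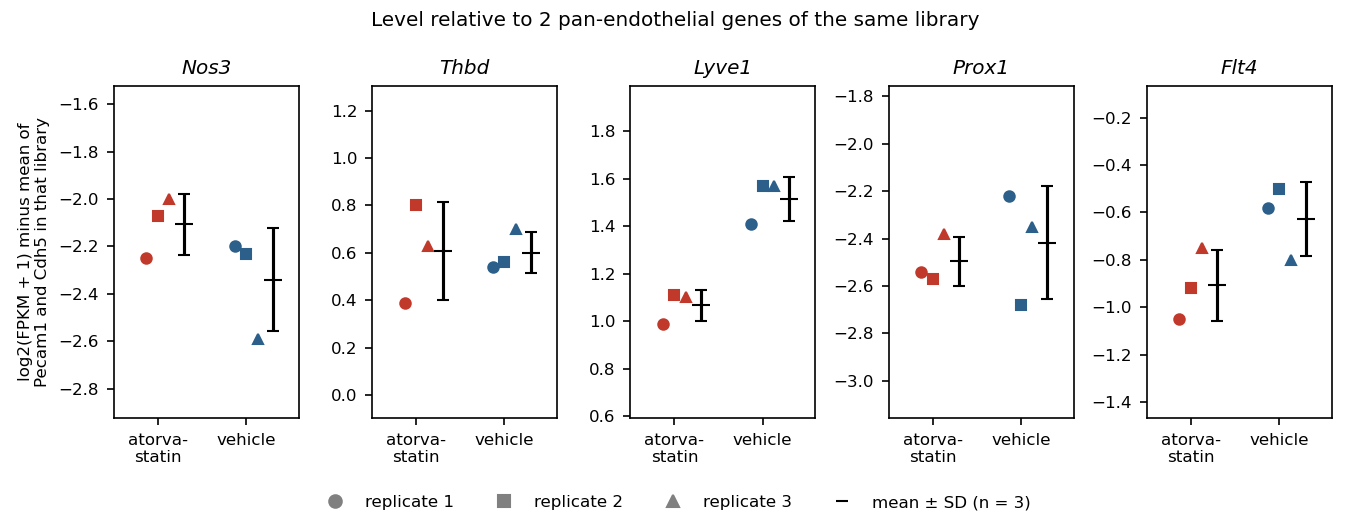
Level of Nos3, Thbd, Lyve1, Prox1 and Flt4 as log2(FPKM + 1) minus the mean of Pecam1 and Cdh5 in the same library, with 3 atorvastatin and 3 vehicle libraries per gene and the same span on each axis. Black bars are the mean ± SD (n = 3). Lyve1 lies between 0.99 and 1.11 with atorvastatin and between 1.41 and 1.57 with vehicle, while the groups of the other 4 genes overlap.

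The 3 lymphatic genes gave differences of both signs. Prox1 (ENSMUSG00000010175, chromosome 1, 190118035 to 190170714, minus strand), the transcription factor that sets lymphatic identity, had 6.04, 4.59 and 6.64 FPKM in the atorvastatin libraries and 6.85, 4.42 and 5.34 FPKM in the vehicle libraries. The groups overlapped almost fully, with a difference of 0.05 (SE 0.18, 95% interval -0.38 to 0.48, limma adjusted p = 0.949) that was negative, -0.05, with the length trend removed. Its antisense neighbour Prox1os, which shares exonic bases with it, had 0.00 to 0.12 FPKM. Enteroendocrine cells and neurons also use Prox1. Of 10 markers of those cells 3 were high enough to be tested, Chga, Neurod1 and Elavl4 were below 1 FPKM in every library, and the granule and hormone genes Chgb, Gcg, Pyy and Cck passed 1 FPKM in at most 2 libraries each, reaching 1.94, 1.82, 1.29 and 1.15 FPKM in that order. The list summed to 10.8 to 12.8 FPKM with atorvastatin and 11.3 to 15.7 FPKM with vehicle. The most abundant were Tubb3, at 3.93, 3.55 and 4.37 FPKM with atorvastatin and 3.40, 4.19 and 2.98 FPKM with vehicle, and Stmn2, at 2.70, 2.38 and 2.58 FPKM with atorvastatin and 3.24, 2.65 and 2.92 FPKM with vehicle.

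Flt4 (ENSMUSG00000020357, chromosome 11, 49609263 to 49652739, plus strand) encodes VEGFR3, the receptor for VEGF-C and VEGF-D. It had 18.9, 16.6 and 22.6 FPKM in the atorvastatin libraries and 23.4, 23.5 and 17.5 FPKM in the vehicle libraries. Vehicle libraries 1 and 2 were the highest, and vehicle library 3 lay among the atorvastatin libraries. The difference was -0.14 (SE 0.17, 95% interval -0.54 to 0.26, limma adjusted p = 0.843), and -0.28 without vehicle library 3.

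Lyve1 (ENSMUSG00000030787, chromosome 7, 110850607 to 110863239, minus strand) encodes the hyaluronan receptor of lymphatic capillaries. It had 80.4, 70.7 and 84.3 FPKM in the atorvastatin libraries and 95.9, 102 and 94.5 FPKM in the vehicle libraries. Each atorvastatin library was below each vehicle library, and the gap between the groups exceeded the SD of either. The difference was -0.31 (SE 0.13, 95% interval -0.62 to -0.01, limma adjusted p = 0.692), and it was between -0.37 and -0.24 when any single library was left out. With equal sums per library the groups overlapped, at 62.6 to 95.6 FPKM with atorvastatin and 90.5 to 99.9 FPKM with vehicle.

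Perivascular macrophages also carry LYVE-1. Of 13 macrophage markers 10 were tested, 9 with positive and 1 with a negative difference and a median of 0.25. The list summed to 247, 259 and 237 FPKM with atorvastatin and 152, 204 and 300 FPKM with vehicle, so the vehicle libraries spanned the atorvastatin libraries. Among markers of resident and perivascular macrophages, Cd163 and F13a1 were below 1 FPKM in every library and Folr2 had 0.47 to 1.05 FPKM with atorvastatin and 0.58 to 0.93 FPKM with vehicle. Mrc1 had 3.56 to 3.90 FPKM with atorvastatin and 3.00 to 3.74 FPKM with vehicle (difference 0.10, SE 0.11). Timd4 had 14.2 to 22.0 FPKM with atorvastatin and 17.8 to 19.9 FPKM with vehicle (difference -0.07, SE 0.17). The groups did not overlap in 1 tested gene of the list, Mertk, which was higher, against 5.53% of all genes. Mertk, named after its values were seen, had 3.56 to 4.12 FPKM with atorvastatin and 2.85 to 2.96 FPKM with vehicle (difference 0.29, SE 0.10, limma adjusted p = 0.692). It was also the 1 gene of the list with an unadjusted p under 0.05, against 3.13% of all genes in that direction. The most abundant markers were Lyz2, at 111, 120 and 108 FPKM with atorvastatin and 66.5, 84.5 and 140 FPKM with vehicle, and C1qb, at 37.2, 34.0 and 30.9 FPKM with atorvastatin and 16.8, 24.8 and 47.7 FPKM with vehicle. The difference of C1qb was 0.31, and -0.02 without vehicle library 1. The part of macrophages in the Lyve1 values was not tested.

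**Figure D4:**
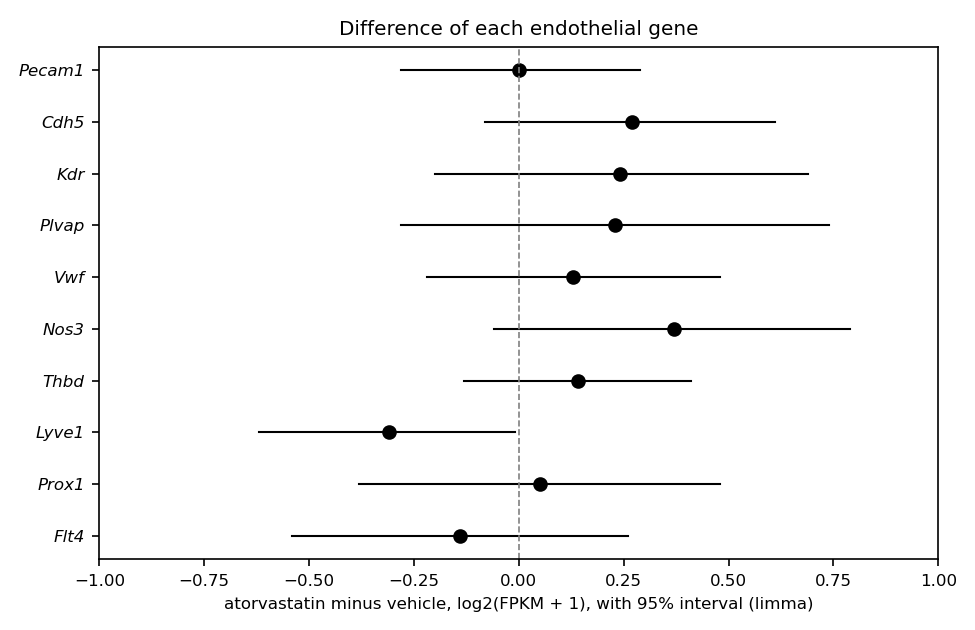
Difference of each of the 10 genes, atorvastatin minus vehicle on the log2(FPKM + 1) scale, with its 95% interval from limma (3 libraries per group). The interval of Lyve1 ends just short of 0, at -0.01, and the other 9 intervals include 0.

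The wider vessel programme was read from gene lists written out by cell type and role. In the pan-endothelial list 16 of 25 tested genes had positive and 9 negative differences, with a median of 0.06. At an unadjusted p under 0.05, which 3.13% of all genes reached in the higher and 4.04% in the lower direction, the list held 0 genes higher and 1 lower. That was Cd34, a sialomucin of endothelial and progenitor cells, with 20.5, 18.1 and 20.2 FPKM in the atorvastatin libraries and 24.0, 22.6 and 26.2 FPKM in the vehicle libraries. Its difference was -0.30 (SE 0.11, limma adjusted p = 0.692), with no overlap. With equal sums per library the groups overlapped, at 16.0 to 22.9 FPKM with atorvastatin and 22.1 to 25.1 FPKM with vehicle. Its abundant members S1pr1, a sphingosine 1-phosphate receptor, and Eng, a co-receptor for TGF-beta family ligands, had differences of -0.13 (SE 0.14) and 0.27 (SE 0.15). Sox18, a transcription factor of vessel development named after its values were seen, was the other gene of this list with separate groups, at 15.9 to 18.7 FPKM with atorvastatin and 11.4 to 15.8 FPKM with vehicle.

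Lists for parts of the vascular tree were mixed or leaned to positive differences, with 0 genes past the test in any. In the blood capillary list 7 of 11 tested genes had positive differences (median 0.09), and Car4, Apln and Aplnr were below 1 FPKM in every library. Its most abundant gene was Sparcl1, a matrix protein gene also used by pericytes, at 166, 152 and 175 FPKM with atorvastatin and 146, 147 and 170 FPKM with vehicle (difference 0.09, SE 0.14). In the arterial list 8 of 9 had positive differences (median 0.19). Its leading genes Hey1, a target of Notch, and Dll4, a Notch ligand, had differences of 0.10 (SE 0.22) and 0.19 (SE 0.17). Without vehicle library 3 the difference of Dll4 was 0.03.

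Venous and leukocyte adhesion genes had positive differences in 10 of 12 cases (median 0.19). Icam1, an integrin ligand that many cell types express, had 284, 181 and 267 FPKM in the atorvastatin libraries and 209, 157 and 228 FPKM in the vehicle libraries (difference 0.29, SE 0.24), and Selp, P-selectin, had a difference of 0.24 (SE 0.20) that was 0.08 without vehicle library 3. Of this list 1 gene reached an unadjusted p under 0.05, in the higher direction, against 3.13% of all genes. That was the interleukin-1 receptor gene Il1r1, with 26.1, 20.5 and 30.9 FPKM in the atorvastatin libraries and 17.0, 15.2 and 21.7 FPKM in the vehicle libraries (difference 0.50, SE 0.19, limma adjusted p = 0.692). It is also a gene of fibroblasts, and its groups overlapped. Ackr1, the chemokine receptor of venules, named after its values were seen, had 24.7, 11.7 and 24.1 FPKM in the atorvastatin libraries and 2.36, 23.9 and 28.1 FPKM in the vehicle libraries. Vehicle library 1 was far below the other 5 libraries in that gene.

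In the lymphatic list 5 of 13 tested genes had positive and 8 negative differences, with a median of -0.10. The list gene Stab2, named after its values were seen, was below 1 FPKM in every library and was not tested. It had 0.43 to 0.54 FPKM with atorvastatin and 0.23 to 0.40 FPKM with vehicle. Its groups were thus separate in the higher direction, against 5.53% of all tested genes. Ccl21a, the chemokine that draws dendritic cells into lymphatics, was the most abundant gene of the list at 780, 560 and 742 FPKM with atorvastatin and 841, 731 and 899 FPKM with vehicle (difference -0.26, SE 0.22). Reads of Ccl21a may be shared with near-identical Ccl21 copies, so its level is uncertain. Pdpn, podoplanin, which fibroblasts express too, had a difference of 0.26 (SE 0.27). An unadjusted p under 0.05 was reached by 2 genes, Lyve1 and Mmrn1, both lower, against 4.04% of all genes in that direction. Mmrn1, a multimerin that lymphatic endothelium secretes, had 52.6, 52.4 and 66.1 FPKM in the atorvastatin libraries and 81.0, 76.6 and 65.2 FPKM in the vehicle libraries. Atorvastatin library 3 was just above vehicle library 3, and the difference was -0.38 (SE 0.15, limma adjusted p = 0.692).

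A list of VEGF family members, angiopoietins and other secreted factors was read in the same libraries. Of its 10 genes 9 had positive differences, with a median of 0.22. Vegfa, the ligand of VEGFR2, had 28.4, 24.6 and 30.8 FPKM in the atorvastatin libraries and 23.7, 20.8 and 29.9 FPKM in the vehicle libraries (difference 0.18, SE 0.16). The VEGFR3 ligand genes Vegfc and Vegfd had differences of 0.13 (SE 0.15) and -0.17 (SE 0.13). Of this list 2 genes reached an unadjusted p under 0.05, both higher, against 3.13% of all genes in that direction. They were Angptl4 and Cxcl12, which are not VEGF family members or angiopoietins. Both also had no overlap, which 5.53% of all genes had in that direction. Angptl4, an inhibitor of lipoprotein lipase that responds to fatty acids and hypoxia, had 4.82, 4.01 and 4.06 FPKM in the atorvastatin libraries and 2.58, 1.73 and 2.02 FPKM in the vehicle libraries (difference 0.77, SE 0.14, limma adjusted p = 0.627). It stayed separate with equal sums per library. Cxcl12, a chemokine of stromal and endothelial cells, had 19.0, 15.0 and 21.7 FPKM with atorvastatin and 11.1, 12.4 and 14.1 FPKM with vehicle (difference 0.52, SE 0.16, limma adjusted p = 0.692). With equal sums per library its groups overlapped, with a lowest value of 13.3 FPKM with atorvastatin and a highest of 13.5 FPKM with vehicle.

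Nitric oxide and anticoagulant genes were balanced, with 9 of 18 positive, 9 negative and a median of 0.04, and 0 had an unadjusted p under 0.05. The most abundant were Hmox1, haem oxygenase, and Procr, the endothelial protein C receptor that works with thrombomodulin, with differences of -0.04 (SE 0.18) and -0.02 (SE 0.22). The groups did not overlap in 3 of the 18 genes, Klf4 and Thbd above and Nostrin below, against 14.4% of all genes in either direction, of which Klf4 and Nostrin are named after their values were seen. Klf2 and Klf4 are the shear-responsive factors through which statins are known to act on Nos3 and Thbd in cultured endothelium. Klf4 had 71.1, 62.7 and 85.4 FPKM in the atorvastatin libraries and 51.9, 56.0 and 61.8 FPKM in the vehicle libraries (difference 0.36, SE 0.16, limma adjusted p = 0.696). Klf2 had 43.6, 36.9 and 47.9 FPKM with atorvastatin and 36.6, 48.9 and 49.8 FPKM with vehicle (difference -0.07, SE 0.17). Neither is confined to endothelium.

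Lists of neighbouring cells give the setting of these values. All 11 pericyte and smooth muscle genes had positive differences, with a median of 0.30. The groups did not overlap in 4 of them, Myh11, Pdgfrb, Abcc9 and Cspg4, all higher, against 5.53% of all genes. Myh11 and Pdgfrb had an unadjusted p under 0.05 in that direction, against 3.13% of all genes. Myh11, smooth muscle myosin, had 117, 104 and 106 FPKM with atorvastatin and 84.5, 70.5 and 81.1 FPKM with vehicle (difference 0.47, SE 0.13, limma adjusted p = 0.692), and Pdgfrb, the PDGF receptor of pericytes, had 29.4 ± 5.54 FPKM with atorvastatin and 22.0 ± 0.909 FPKM with vehicle (SD, n = 3 each), a difference of 0.39 (SE 0.16, limma adjusted p = 0.692). These genes were named after their values were seen. The list summed to 643 to 853 FPKM with atorvastatin and 512 to 900 FPKM with vehicle, led by Acta2 (216 to 278 FPKM with atorvastatin, 181 to 323 with vehicle) and Tagln (155 to 228 with atorvastatin, 124 to 275 with vehicle). Fibroblast genes, led by Dcn (315 to 364 FPKM with atorvastatin, 334 to 388 with vehicle) and Dpt (274 to 343 with atorvastatin, 274 to 388 with vehicle), had 5 positive and 4 negative differences and a median of 0.09. All 6 pan-leukocyte genes had negative differences, with a median of -0.29, and Cd53 had 170 to 189 FPKM with atorvastatin and 226 to 268 FPKM with vehicle, and Cd52 had 85.2 to 113 FPKM with atorvastatin and 128 to 138 FPKM with vehicle. All 6 tested colonic epithelium genes were negative, with a median of -0.41, with Epcam at 10.7 ± 2.69 FPKM with atorvastatin and 12.4 ± 1.17 FPKM with vehicle, and Krt8 at 6.03 ± 4.75 FPKM with atorvastatin and 9.36 ± 2.97 FPKM with vehicle (SD, n = 3 each). Their part in the endothelial values was not tested.

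**Figure D5:**
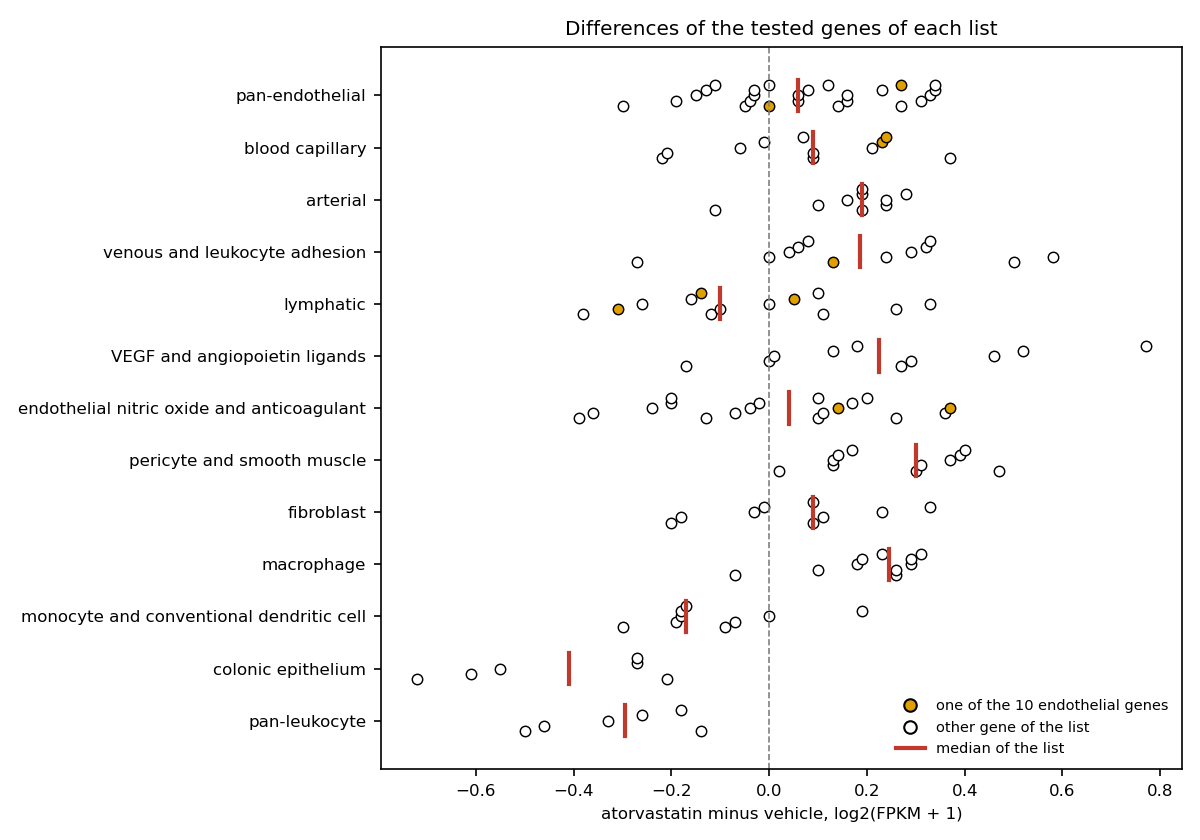
Differences, atorvastatin minus vehicle on the log2(FPKM + 1) scale, of the tested genes in endothelial lists and in lists for other cells of the tissue. Filled points are among the 10 endothelial genes, open points are other genes, points are spread vertically for legibility, and red bars are list medians. Medians run from -0.41 for colonic epithelium to 0.30 for pericyte and smooth muscle, with -0.10 for the lymphatic list.

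Genes that most resembled these patterns over the 6 libraries were found by Pearson's r on log2(FPKM + 1) among 7237 other genes of at least 5 FPKM, as a description. The mean of Pecam1, Cdh5, Kdr, Plvap and Vwf was most like Timeless (r = 0.994), Pxn (r = 0.981) and Robo4 (r = 0.979), and 143 genes had r over 0.9. Robo4, a receptor of blood endothelium, had 9.38, 6.41 and 9.99 FPKM with atorvastatin and 7.09, 7.77 and 5.26 FPKM with vehicle. Lyve1 was most like Cyp4b1 (r = 0.995), A630001G21Rik (r = 0.987) and Ahcy (r = 0.983), and 114 genes had r over 0.9. The 6 points of each r share their libraries and their 2 groups.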

How the data were processed

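Bulk RNA-seq of lamina propria cells gave 3 atorvastatin and 3 vehicle libraries. The authors deposited FPKM with 2 decimals, per the file headers; the submitters' processing notes name FastQC 0.11.2, Bowtie and mm10. The sources used here name no quantifier, annotation or strand setting, and fragment counts and depth are unknown. Symbols came from GENCODE mouse release 21 (55141 of 55401 IDs). The 10 genes and all lists were chosen with earlier results of these data known. Genes reaching 1 FPKM in 3 or more libraries were tested on log2(FPKM + 1) with limma 3.58.1 (limma-trend, R 4.3.3), Benjamini-Hochberg over 13590 genes. The fit was tested on simulated data with planted changes larger than any difference of the 10 genes. That test does not show how often differences of the size seen here would be found. Named genes are the 10, the 2 most abundant of each list, endothelial list genes with an unadjusted p under 0.05, and the most alike. Alternatives covered pseudocount, filter, scaling, library weights, replicate block, single libraries left out and, added after seeing the data, a transcript length trend and the levels of Lyve1, Prox1 and Flt4 relative to Pecam1 and Cdh5.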

Additional observations from a re-analysis of the deposited data

How the results depend on the processing

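No alternative brought any of the 10 genes past the threshold, and their lowest adjusted p was 0.122. With array weights 4 of all genes passed, and 0 to 2 passed when single libraries were left out (2 without atorvastatin library 3, 1 without atorvastatin library 1). Of 160 pairs of a gene among the 10 and an alternative, 151 kept the direction and 9 did not. These were Vwf (-0.06) and Prox1 (-0.11) with array weights, Prox1 with the length trend removed (-0.05), and values with single libraries left out, which ran from -0.05 to 0.09 for Pecam1, -0.01 to 0.24 for Vwf and -0.07 to 0.19 for Prox1. Other named genes with small differences also turned: with equal sums Hmox1 (0.03), Procr (0.05), Dcn (0.04) and Dpt (0.06), with array weights Hmox1 (0.03), Dcn (0.06), Dpt (0.21) and Itgax (0.08), and with the length trend removed Hmox1 (0.05), Procr (0.06), Dpt (0.07) and Itgb3 (-0.02). With single libraries left out the ranges were -0.08 to 0.32 for Hey1, -0.14 to 0.05 for Hmox1, -0.22 to 0.14 for Procr, -0.03 to 0.39 for Acta2, -0.09 to 0.48 for Tagln, -0.07 to 0.04 for Dcn, -0.11 to 0.14 for Dpt, -0.11 to 0.18 for Itgb3, -0.08 to 0.55 for Pf4, -0.02 to 0.71 for C1qb and -0.24 to 0.08 for Itgax. The cause was not tested. With the replicate number as a block 0 genes passed and 852 had an unadjusted p under 0.05. After the group means were removed, same-numbered libraries had correlations of -0.109, 0.137 and -0.0151. Those of differently numbered libraries ran from -0.162 to 0.192. Correlations of this size cannot tell whether the libraries were handled in pairs, and the labels do not say. The exact permutation test planned for genes removed by the filter was not needed, since all 10 passed it. FPKM without counts sets an unknown depth limit.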
